A study of Danio rerio with 4 samples.

Results

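The genes described here belong to families that hold early response genes outside the AP-1 group. Not every member is itself an early response gene, and the name stands here for the whole set. All were chosen by symbol: EGR1 to EGR4, the numbered KLF, DUSP, ATF and BTG genes, NR4A, SOCS, IER2 and IER5, ZFP36 and CEBP A, B, D and G. Their symbols matched 91 of the 32105 Ensembl gene IDs in the count table, and 76 of the 91 had 1 CPM or more (CPM being read counts scaled to library size) in 2 or more libraries, the condition for testing. Matching by symbol also took in atf7ip and atf7ip2, which encode partners of chromatin enzymes and not bZIP factors, and IER5L, a relative of IER5. The data are 4 RNA sequencing libraries of a single kind, from adult zebrafish of wildtype genotype that carry a pdgfr beta egfp transgene. In each library the EGFP-positive cells of 6 pooled brains, dissociated with Liberase, were sorted and their RNA was amplified. The transgene is driven by sequence of the pericyte receptor gene pdgfrb, so the cells were selected by that driver and not by a cell surface marker. The titles call the samples pericytes and a cell type tag calls them muLEC, and the design text speaks of 3 preparations where 4 samples are listed. No library of undissociated, unsorted or EGFP-negative cells was analysed here.

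Early response genes are transcribed soon after a cell receives a signal, without new protein synthesis, because the factors that switch them on (SRF with its ETS partners, CREB and others) are already present and are activated by MAP kinases and calcium. Their products fall into 2 sorts. One is transcription factors (EGR, KLF, NR4A, ATF and CEBP) that pass the signal on to later genes, and the other is brakes that end it. The DUSP phosphatases switch off MAP kinases, SOCS proteins inhibit JAK kinases, ZFP36 proteins speed the decay of AU-rich mRNAs, and BTG proteins restrain proliferation and recruit the deadenylase that shortens mRNA tails. In brain, EGR and NR4A genes are best known for their response to neuronal activity.

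The 4 columns of the table match no sample number, so B1 to B4 are column names only. Total counts were between 33270774 and 40441253 per library, and 3 counts correspond to between 0.0751 and 0.0879 CPM, which is a limit for counting error alone. The pericyte genes PDGFRB and NOTCH3 were present at 115 ± 75.5 and 169.6 ± 123 CPM, or 81.0 and 108.6 CPM without B1. Of the 13 tested pericyte marker IDs, 9 (69.2%) lay above the reference level that is defined below, both of these genes among them. CSPG4 lay below it at 1.19 ± 0.823 CPM, and ABCC9, KCNJ8 and TBX18 lay on neither side. Of all tested genes 36.8% lay above that level. The share above was larger for fibroblast (88.9%), radial glia (85.7%) and oligodendrocyte markers (80%) than for pericyte markers. It was smaller for smooth muscle (62.5%), lymphatic and muLEC (50%), neuron (45.5%), microglia (44.4%) and endothelial markers (21.4%). The radial glia gene FABP7 (ENSDARG00000007697) was present at 6947 ± 4078 CPM. Its second ID (ENSDARG00000034650) stood at 20.7 ± 14.6 CPM, on neither side of that level. Values after ± are SDs over the 4 libraries unless marked SE. A level in such a bulk sample does not say which cells held the RNA, and fewer cells of a type and less RNA per cell cannot be told apart. The labels give no separation of the samples beyond the pools, so the spread between these 4 libraries may be partly technical. The p-value of a level sets its distance from the reference level against that spread. A small p does not mean that the libraries were alike.

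With a single group, each gene's level was tested against a reference level, the median fitted level of all 17283 tested genes, at 12.6 CPM. The levels are CPM without correction for transcript length, so a difference between genes holds their lengths as well as their abundance, while a difference of 1 gene between libraries does not. By edgeR's quasi-likelihood test with Benjamini-Hochberg adjustment over all tested genes, 50 of the 76 tested members (65.8%) lay above the reference level, against 36.8% of all tested genes. Another 13 (17.1%) lay below it, against 33.2% of all tested genes, and 13 lay on neither side. The median tested member stood 1.97 log2 units above the reference level, where the median over all tested genes is 0 by construction. Counts differed by family, and no test compared the families. All tested members of the EGR (4), NR4A (3), CEBP (4), BTG (3), ZFP36 (3) and IER (4) families were above, as were 8 of 10 ATF and 11 of 16 KLF IDs. Of 18 tested DUSP IDs 7 were above and 7 below, and of 11 tested SOCS IDs 3 were above and 5 below. These family counts depend on the filter, without which the reference level fell to 3.14 CPM. There 10 of 23 DUSP IDs were above and 6 below, and 7 of 12 SOCS IDs were above and 1 below, against 43.5% and 40.8% of all genes. Without B1, 52 of 75 tested members were above and 16 below, against 41.7% and 38.3% of all tested genes.

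**Figure D1:**
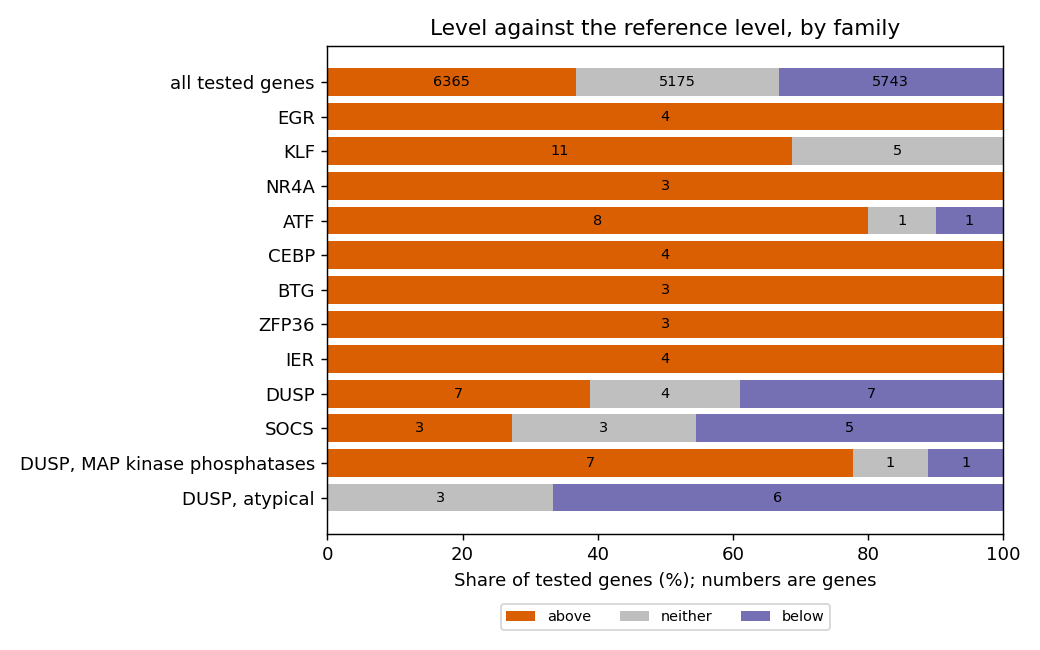
Share of tested genes (x axis, %) above, on neither side of or below the reference level by edgeR's quasi-likelihood test at an adjusted p under 0.05, for all tested genes and each family, with the number of genes written in each bar. Every tested EGR, NR4A, CEBP, BTG, ZFP36 and IER gene was above, and the DUSP family separates into MAP kinase phosphatases, with 7 of 9 above, and atypical members, with 0 of 9 above and 6 below. Of all tested genes 36.8% were above and 33.2% below. Levels are not corrected for transcript length.

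The EGR genes encode zinc finger factors that bind GC-rich DNA. egr1 stood at 801, 479, 651 and 803 CPM in B1 to B4, a mean of 683 ± 154 CPM and 5.76 ± 0.23 (SE) over the reference on the log2 scale (adjusted p = 5.17e-08 by edgeR). Its libraries lay within a factor of 2 of each other. egr4 stood at 7993, 475, 133 and 339.8 CPM, and EGR2, the gene of the factor also called Krox20, at 1114, 154, 138 and 338 CPM. For both, B1 was far above the other libraries, and B3 was the lowest. Their means of 2235 ± 3841 and 436 ± 461 CPM fell to 316 and 210.2 CPM without B1. EGR3 stood at 80.2, 22.9, 23.7 and 18.8 CPM, again with B1 apart, and its mean was 36.4 ± 29.3 CPM and 21.8 CPM without B1. The 4 genes had edgeR adjusted p between 5.17e-08 and 0.0057. The second EGR2-like ID, egr2a, was at 1.96, 0.352, 0.447 and 0.701 CPM and did not reach the filter.

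The NR4A genes encode orphan nuclear receptors whose activity is set mainly by how much of them is made. NR4A1 stood at 173, 104, 96.4 and 142 CPM, NR4A2 (ENSDARG00000044532) at 133, 61.5, 29.7 and 57.8 CPM, and NR4A3 at 754, 235, 109 and 129 CPM. All were highest in B1 and lowest in B3. The fitted levels were 3.35 ± 0.24, 2.48 ± 0.35 and 4.60 ± 0.49 (SE) over the reference on the log2 scale, with edgeR adjusted p of 3.48e-06, 0.000228 and 8.83e-06. The mean of NR4A3 was 307 ± 303 CPM and 158 CPM without B1. The second NR4A2 ID (ENSDARG00000017007) had 1 count in all 4 libraries together.

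Among the CEBP genes, which encode bZIP factors of inflammatory and metabolic responses, CEBPD stood at 8144, 1450.1, 1132 and 1363 CPM and CEBPB at 1658, 788, 512 and 590.0 CPM. CEBPA, best known from myeloid, liver and fat cells, stood at 136, 66.7, 45.95 and 35.2 CPM. In all 3 B1 was at least 2-fold above every other library. Without B1 the mean of CEBPD went from 3022 ± 3417 to 1315 CPM. cebpg, whose protein lacks a transactivation domain and works as a dimer partner, was even, at 93.1, 87.5, 108 and 102 CPM. The 4 genes were above the reference level by 2.49 to 7.90 log2 units, with edgeR adjusted p between 6.73e-08 and 0.000209.

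The ATF genes encode bZIP factors of the stress and cAMP responses. atf4b, a copy of the gene for the main effector of the integrated stress response, stood at 925, 1335, 1283 and 1216 CPM. ATF3, a stress-induced repressor, stood at 524, 547, 574 and 526 CPM. Both were nearly level across libraries, with means of 1190.0 ± 183 and 543 ± 23.2 CPM, and lay 6.56 ± 0.22 and 5.43 ± 0.20 (SE) over the reference on the log2 scale (adjusted p = 1.02e-08 and 4.76e-08 by edgeR). atf5a behaved otherwise, at 203, 31.0, 34.7 and 56.2 CPM, with B1 apart and a mean of 81.1 ± 81.7 CPM, or 40.6 CPM without B1. Its copy atf5b stood at 69.0, 72.7, 68.4 and 54.4 CPM. atf6, the gene of an ER membrane sensor, was at 18.6 to 25.7 CPM and atf1, of the CREB family, at 25.2 to 61.7 CPM, both above the reference level. atf7ip, of the chromatin partners, stood at 449.7, 56.1, 51.2 and 68.5 CPM, and its mean of 156 ± 196 CPM was 58.6 CPM without B1. atf7ip2 lay below the reference level at 6.13 ± 2.50 CPM, and ATF2 was at 0.0279 to 0.322 CPM and not tested.

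The KLF genes encode zinc finger factors that bind GC and CACCC boxes. KLF6 stood at 425, 425, 344 and 389 CPM, with a mean of 396 ± 38.3 CPM and 4.97 ± 0.21 (SE) over the reference on the log2 scale (adjusted p = 1.08e-07 by edgeR). The copies of KLF11 were alike, at 97.9, 173, 193 and 229 CPM (ENSDARG00000013794) and 95.6, 179, 146 and 169.7 CPM (ENSDARG00000030844), with B1 the lowest library of both. klf2a, known as a factor that endothelium makes under blood flow, stood at 87.9, 172, 88.2 and 81.9 CPM, with B2 about 2-fold above the rest. Its copy klf2b stood at 9.55, 12.8, 33.0 and 6.06 CPM and did not differ detectably from the reference level (log2 0.28 ± 0.41 SE, edgeR adjusted p = 0.545). B3 set its mean of 15.3 ± 12.1 CPM, which was 9.46 CPM without B3. KLF9, a target of glucocorticoid and thyroid hormone receptors, was above the reference level at 42.8 ± 7.68 CPM and KLF15, another glucocorticoid target, at 44.1 ± 11.3 CPM. KLF4, a gene of epithelial and stem cells, did not pass at 10.1 ± 3.82 CPM, and no KLF ID lay below in this test. By DESeq2, and with a filter of 1 CPM in all 4 libraries, 1 KLF ID lay below, against 37% and 31.7% of all tested genes. Without a filter 16 of 21 KLF IDs were above and 4 below, against 43.5% and 40.8% of all genes. The erythroid gene klf1 was at 0 to 0.25 CPM, and klf17, klf5l, klf6b and one of the KLF5 IDs (ENSDARG00000062106) did not reach the filter either.

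The BTG and ZFP36 genes, which encode regulators of RNA decay and growth, are given here together with the IER genes. They held BTG2, the most counted of the members. BTG2 stood at 23719, 2170.1, 1582 and 2245 CPM. B1 was more than 10-fold above each other library, and the mean of 7429 ± 10864 CPM was 1999 CPM without B1. BTG1, its closest relative, stood at 664, 789, 828 and 835 CPM, where B1 was the lowest. btg3 was lowest in B1 too, at 40.4, 99.1, 87.0 and 92.3 CPM, and BTG4, known from oocytes, had 1 count in all. The ZFP36L1 copies stood at 676, 1201, 944 and 1039 CPM (ENSDARG00000021443) and 376, 574, 404 and 528 CPM (ENSDARG00000016154), and ZFP36L2 at 244, 360.04, 431 and 418 CPM. B1 was the lowest library in all 3. The immediate early gene ier2a stood at 425, 1297, 705 and 813 CPM, ier2b at 74.4, 122, 135 and 121 CPM and IER5, a co-regulator of heat shock factor, at 279, 505, 458 and 499 CPM. In these 3 as well B1 was the lowest library. IER5L went the other way, at 683, 55.2, 50.8 and 47.4 CPM, and its mean of 209 ± 316 CPM was 51.1 CPM without B1. These 10 tested genes had edgeR adjusted p between 2.37e-08 and 0.000191.

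The DUSP family separated by type. The MAP kinase phosphatases, which remove phosphate from ERK, JNK and p38, had 7 of 9 IDs above the reference level and 1 below. The atypical members, smaller phosphatases without the kinase-binding domain, had 0 of 9 tested above and 6 below, out of 14 IDs. Of all tested genes 36.8% lay above and 33.2% below, and the difference between the types was not tested. CPM is not corrected for transcript length, so this difference holds the lengths of the transcripts as well. DUSP1, the nuclear phosphatase that is induced by stress, stood at 379, 759.7, 506 and 703 CPM, 5.54 ± 0.25 (SE) over the reference on the log2 scale (adjusted p = 1.06e-07 by edgeR), and was lowest in B1. DUSP2 stood at 537, 344, 341 and 259 CPM and was highest there. DUSP5, a nuclear ERK phosphatase, stood at 261, 616, 195 and 208 CPM, with B2 apart. DUSP8, of the group that acts on JNK and p38, stood at 217, 124, 131 and 155 CPM. The same group's DUSP16 stood at 148, 25.9, 23.5 and 20.9 CPM, with B1 far above, and its mean of 54.6 ± 62.3 CPM was 23.4 CPM without B1. DUSP10, the last of that group, was the 1 below, at 1.14, 0.487, 0.168 and 1.05 CPM. DUSP4, at 31.9 ± 21.3 CPM, and DUSP7, at 51.3 ± 27.7 CPM, were above. DUSP6, the cytoplasmic ERK phosphatase that FGF signalling induces, did not pass at 11.2, 5.66, 2.91 and 1.75 CPM (log2 -1.23 ± 0.45 SE, edgeR adjusted p = 0.0661).

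The tested atypical DUSP genes were all at a mean of 14.3 CPM or less. DUSP22, dusp22a, DUSP19 (ENSDARG00000045200), DUSP23 (ENSDARG00000089245), dusp14 and DUSP12 were lowest in B1, with DUSP22 at 4.34, 15.6, 19.9 and 17.5 CPM. DUSP28, dusp3a and dusp11, which encodes an RNA phosphatase, were highest there, dusp11 at 9.73, 1.44, 1.82 and 8.03 CPM. Without B1 the atypical members had 1 above and 8 below, against 41.7% and 38.3% of all tested genes. Without the filter 3 of 14 were above and 5 below, against 43.5% and 40.8% of all genes. DUSP26, dusp3b, DUSP13B, the second DUSP19 ID (ENSDARG00000040490) and the second DUSP23 ID (ENSDARG00000009844) did not reach the filter, and DUSP13B and that DUSP19 ID had 1 count each.

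Of the SOCS genes, SOCS3 (ENSDARG00000026611), the inhibitor of signalling through the gp130 receptor, had the highest mean CPM and stood at 835, 432, 343 and 406 CPM, 5.32 ± 0.28 (SE) over the reference on the log2 scale (adjusted p = 2.19e-07 by edgeR). Every library was far above the reference level and B1 was about 2-fold above the rest. SOCS6 (ENSDARG00000015863) was even, at 28.9, 33.3, 23.5 and 30.3 CPM, and above as well. SOCS7 stood at 109.8 CPM in B1 and 12.2, 8.83 and 9.61 CPM in B2 to B4. Its level of 1.47 ± 0.67 (SE) log2 units had an adjusted p of 0.0495 by edgeR, between 8.91e-05 and 0.349 over the alternatives, and without B1 the level was -0.30 and did not pass. SOCS1, which inhibits interferon signalling, stood at 1.44, 7.07, 12.8 and 7.01 CPM, and socs1b at 0.557, 3.11, 3.66 and 7.23 CPM. Both were lowest in B1, and socs1b lay below the reference level. SOCS2, the regulator of growth hormone signalling, lay below at 6.76 ± 1.79 CPM, as did socs5b, socs9 and the second SOCS6 ID (ENSDARG00000058565). socs4 was at 0.0838 to 0.225 CPM and was not tested. Without B2 2 SOCS IDs were above and 3 below, against 33% and 27.2% of all tested genes. Without the filter 7 of 12 were above and 1 below, against 43.5% and 40.8% of all genes.

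**Figure D2:**
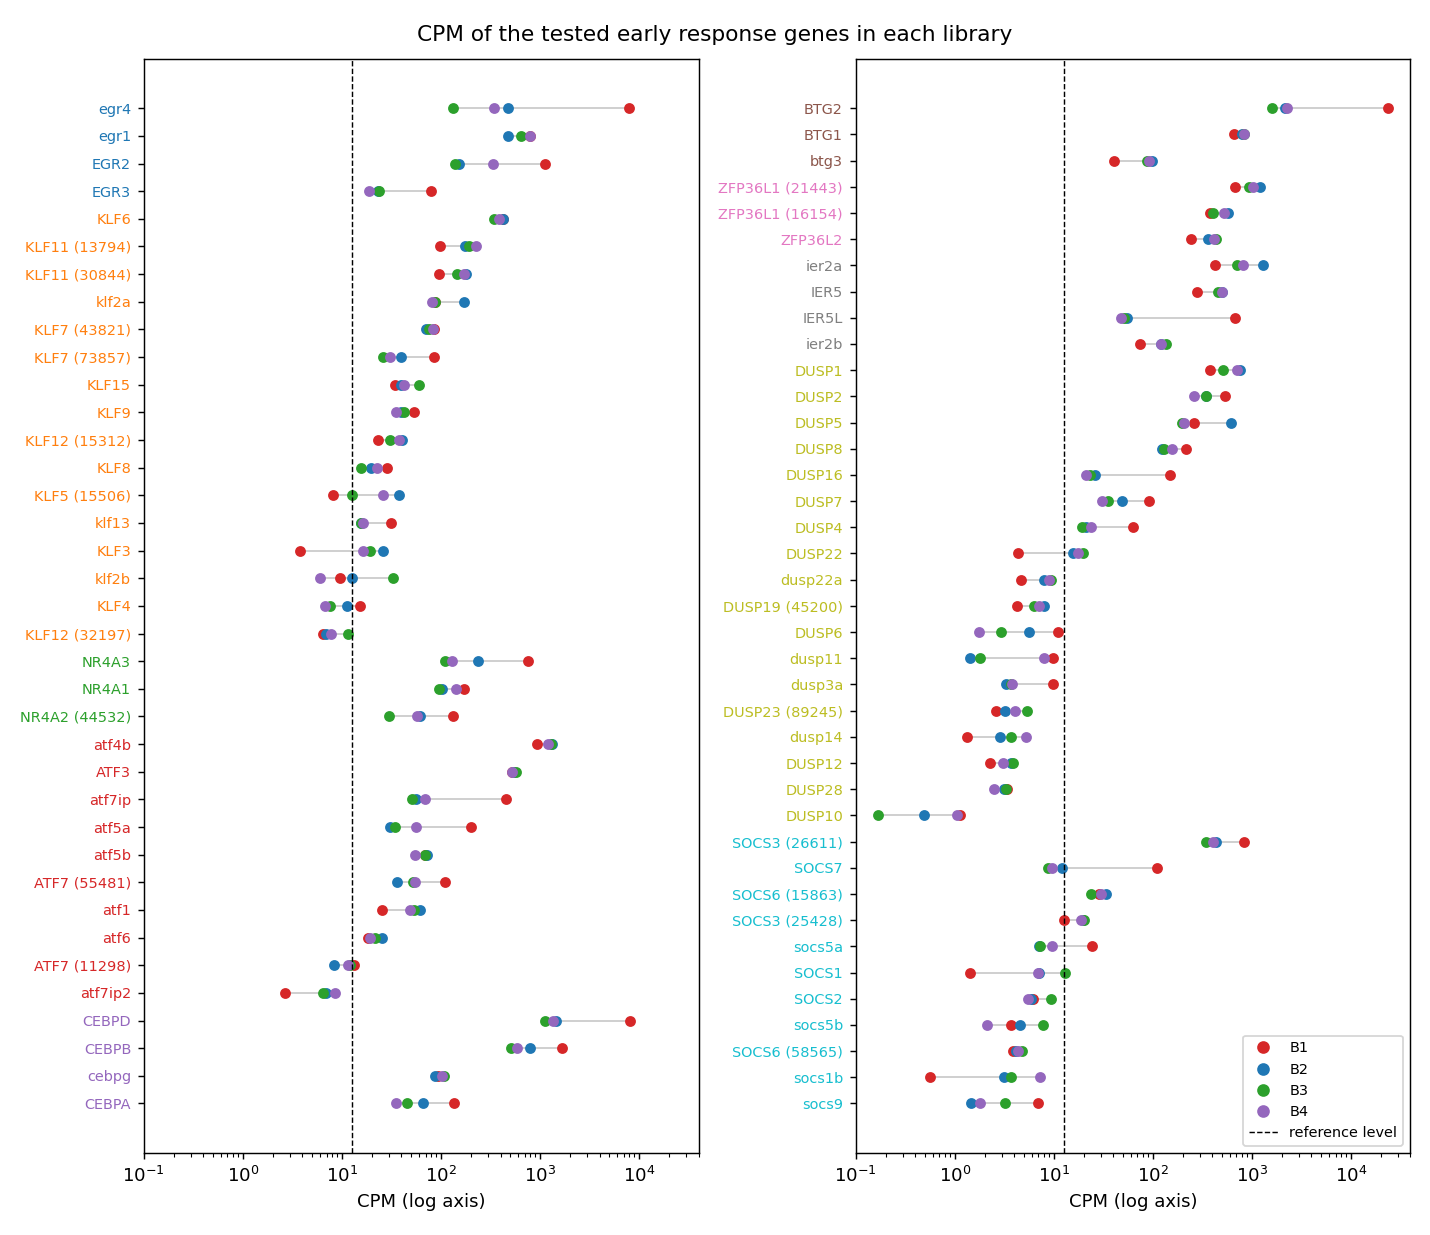
CPM (x axis, log scale) of each of the 76 tested genes in libraries B1 to B4 (coloured points, joined by a grey line), grouped by family, with the last digits of the gene ID where a symbol is shared and a dashed line at the reference level of 12.6 CPM. B1 (red) lies at the right end for egr4, BTG2, CEBPD, IER5L, atf7ip and SOCS7 and at the left end for the ZFP36 genes, ier2a, IER5, btg3 and SOCS1.

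Library B1 stood apart in both directions, over all tested genes as well as in these genes. Only the share of members high in B1 exceeded that of all tested genes, and the share low in B1 did not. The members took 5.59% of all counts in B1 and 1.62, 1.42 and 1.56% in B2, B3 and B4. BTG2, CEBPD and egr4, named here for their counts in B1, made up 4.09% of B1 and 0.296 to 0.39% of the other libraries. The remaining 88 IDs took 1.501% of B1 and 1.12 to 1.23% of the others. Of the 76 tested members 36 (47.4%) were highest in B1, against 36% of all tested genes, and 31 (40.8%) were lowest there, against 43.7%. B1 was at least 2-fold above every other library in 20 members (26.3%, against 15.1% of all tested genes) and at most 0.5 times every other library in 7 (9.21%, against 15.8%). The 20 were egr4, EGR2, EGR3, 1 KLF7 ID, NR4A2, NR4A3, atf5a, atf7ip, 1 ATF7 ID, CEBPA, CEBPB, CEBPD, BTG2, IER5L, DUSP4, DUSP16, dusp3a, SOCS7, socs5a and socs9. The 7 were KLF3, atf7ip2, btg3, DUSP22, dusp14, SOCS1 and socs1b.

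By family, the median difference of log2 CPM between B1 and the mean of B2 to B4 was 2.21 for EGR, 1.495 for NR4A and 1.47 for CEBP. It was -0.34 for KLF, -0.64 for ZFP36 and -0.78 for IER, and -0.12 over all tested genes. DUSP stood between, at 0.43, as did ATF at 0.01, SOCS at -0.13 and BTG at -0.30. Within these families the members differed. egr1 was at 0.35, NR4A1 at 0.63 and cebpg at -0.09, whereas IER5L was at 3.74. One library lay apart from the other 3, by the gap to its neighbour as a share of the range, in 16 members (21.1%, against 16.6% of all tested genes). With the authors' YuGene scores, which are set within each library, 34 tested members (44.7%) were highest in B1, against 36.8% of all tested genes.

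**Figure D3:**
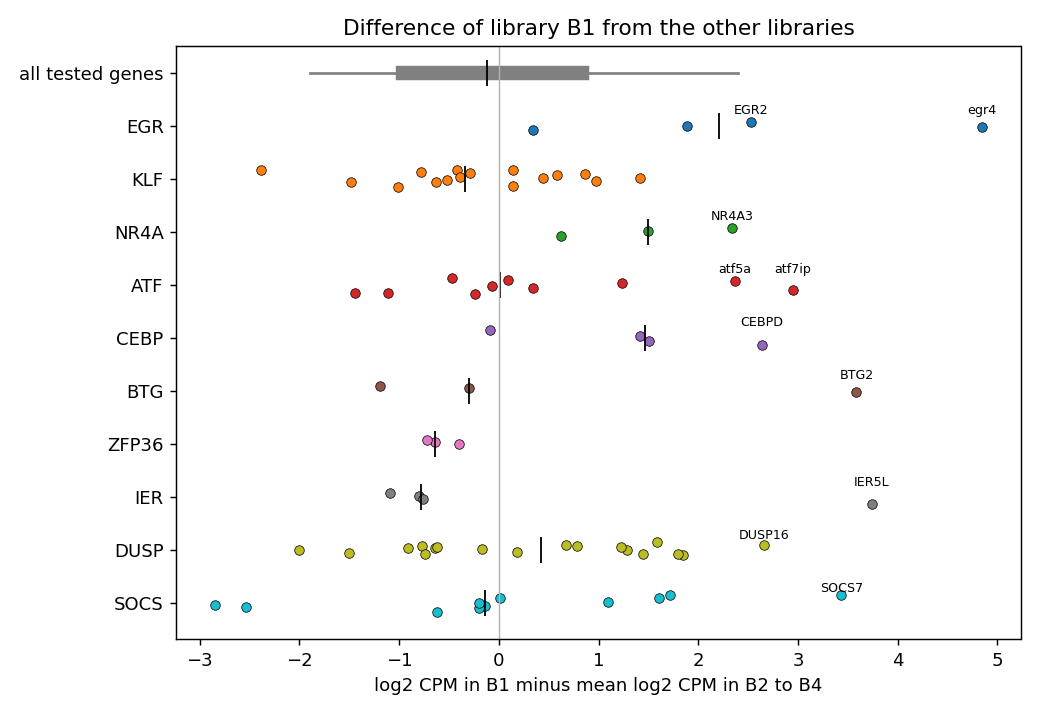
Difference of log2 CPM (prior count of 2) between B1 and the mean of B2 to B4 (x axis) for each tested gene by family, with the family median as a black bar and, for all tested genes, the 5th to 95th percentile as a line and the 25th to 75th as a thick bar. EGR, NR4A and CEBP genes have medians of 1.47 to 2.21, while the ZFP36 and IER medians are -0.64 and -0.78.

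Markers of other cells and other early response genes also differed in B1. Of all tested genes 36% were highest in B1, and the counts of IDs here are to be read beside that share. The neuron markers summed to 734 CPM in B1 and 176 to 289 CPM in the others, and 10 of 12 IDs were highest in B1. In 3 lists the counts hold untested IDs. Among tested IDs they were 10 of 11 for neuron, 2 of 8 for smooth muscle and 3 of 9 for microglia markers. The AP-1 list, without fosab, which was not matched, summed to 51978 CPM in B1 and 11036 to 14358 CPM elsewhere, with 10 of 13 IDs highest there. The radial glia markers went the other way, at 28533 CPM in B1 and 48244 to 53363 CPM in the others, with 1 of 14 IDs highest in B1. The pericyte markers summed to 2187 CPM in B1 and 890.02 to 1549 CPM elsewhere (6 of 13 IDs highest in B1), the lymphatic and muLEC markers to 352 and 196 to 274 CPM (4 of 8) and the endothelial markers to 496 and 221 to 305 CPM (4 of 14). Smooth muscle markers summed to 293 CPM in B1 and 441 to 585 CPM in the others (4 of 11). Oligodendrocyte markers at 2379 against 1407 to 4061 CPM (6 of 10), microglia markers at 1401 against 1324 to 3386 CPM (5 of 13) and fibroblast markers at 1645 against 1031 to 5451 CPM (1 of 9) lay within the range of the other libraries. Some sums rested on 1 ID, by a check chosen after seeing the data that left out the ID of the largest CPM in B1. Without KCNE4 the pericyte sum was 1232 CPM in B1 and 791 to 1442 CPM elsewhere. Without 1 CLDN5 ID (ENSDARG00000043716) the endothelial sum was 256 CPM and 209.8 to 290.2 CPM elsewhere. Both then lay within the range of the other libraries. Single pericyte markers went both ways, with 6 of 13 IDs highest and 6 lowest in B1. Among the lowest there were rgs5b, at 26.8, 679.6, 204 and 178 CPM, and NDUFA4L2, at 26.8, 168, 171 and 113 CPM. Among the highest there were PDGFRB, at 219, 76.0, 121 and 46.0 CPM, NOTCH3, at 352, 91.4, 111 and 124 CPM, and ZIC1, at 473, 195, 227 and 159 CPM. Without apoeb the microglia sum was 160.3 CPM in B1 and 381 to 843 CPM elsewhere, below the others. In every one of these lists 0 IDs were without counts in all libraries. The part of these differences in the values of the early response genes was not tested.

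Between B2, B3 and B4 the members were steady. The median absolute difference of log2 CPM between 2 of these libraries was 0.257 to 0.328 over the 76 members and 0.327 to 0.363 over all tested genes. Between B1 and another library it was 0.913 to 0.991 over the members and 0.893 to 0.978 over all tested genes. The median coefficient of variation of CPM over B2 to B4 was 17.2% for the members and 20.7% for all tested genes, and with B1 it was 38.3 and 38.4%. The highest of B2 to B4 was at least 2-fold the lowest in 14 members (18.4%, against 24.7% of all tested genes). Among them egr4, EGR2, NR4A3, NR4A2 and DUSP6 had their highest value of the 3 in B2 or B4, klf2a, KLF5 and DUSP5 in B2, and klf2b in B3. By edgeR's estimate of the biological coefficient of variation per gene, 1 of 58 members of at least 10 CPM, egr4 at 1.15, reached 1 (1.72%, against 0.889% of all such genes). None did without B1 or without B3, where 0.182% and 0.436% of all such genes did. IER5L and BTG2 came next at 0.956 and 0.932.

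**Figure D4:**
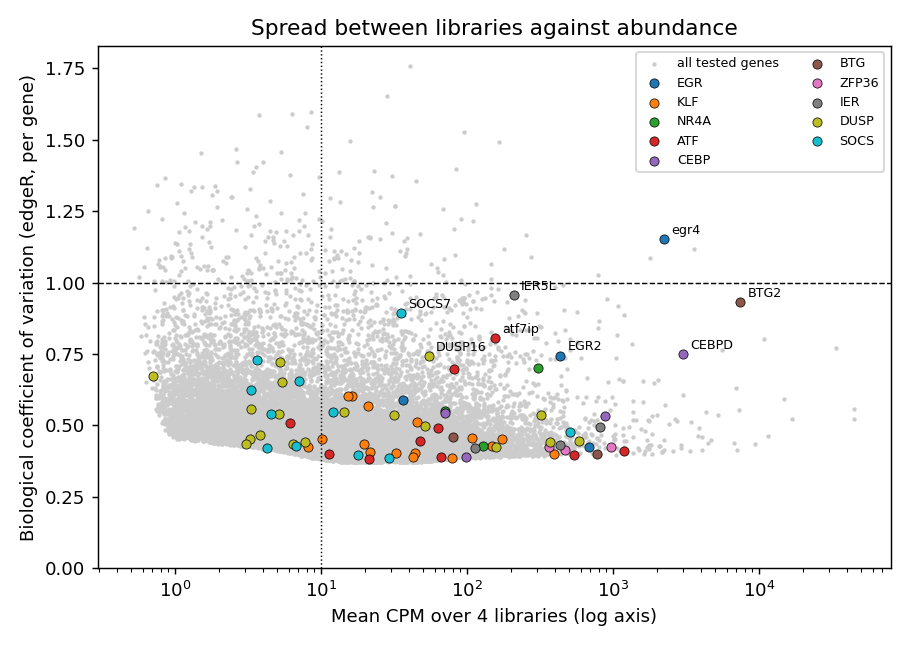
Biological coefficient of variation per gene by edgeR (y axis) against mean CPM over 4 libraries (x axis, log scale), for all tested genes in grey and the early response genes in colour by family, with dashed and dotted lines at the thresholds of 1 and 10 CPM. egr4 alone among them lies above 1, at 1.15, and egr1, ATF3, BTG1, KLF6 and the ZFP36 genes lie between 0.395 and 0.425.

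Zebrafish keep copies of many of these genes, and 13 pairs of copies had both IDs tested. Their read counts were compared within each library, which leaves the lengths of the 2 transcripts in the difference. In 6 pairs one copy exceeded the other in 4 of 4 libraries by a mean of at least 2 log2 units. They were SOCS3 (4.75 ± 0.88, SD, n = 4), klf2a over klf2b (3.03 ± 1.103), ier2a over ier2b (2.76 ± 0.46), SOCS6 (2.74 ± 0.31), ATF7 (2.38 ± 0.45) and KLF12 (2.00 ± 0.50). The lower copies of SOCS3 (ENSDARG00000025428), ATF7 (ENSDARG00000011298) and KLF12 (ENSDARG00000032197) stood at 17.9 ± 3.52, 11.3 ± 2.16 and 8.18 ± 2.30 CPM and did not pass against the reference level, and their higher copies for ATF7 (ENSDARG00000055481) and KLF12 (ENSDARG00000015312) were above it at 63.3 ± 32.4 and 32.8 ± 7.62 CPM. The ZFP36L1 copies differed by 1.03 ± 0.16 log2 units in 4 of 4 libraries and the KLF11 copies by 0.20 ± 0.25, higher in 3 of 4. The difference of atf5a and atf5b ranged from -1.23 to 1.55 log2 units, with atf5a the higher only in B1 and B4. Those of socs5a and socs5b, at -0.11 to 2.70, and of the KLF7 copies, at -0.002 to 1.55, also depended on the library. By the exact two-sided sign-flip test over 4 libraries the smallest possible p is 0.125, and adjusted over the 13 pairs the lowest value was 0.232. Where reads of near-identical copies could be split by the counting, such differences are uncertain.

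Genes that act on these families, or on which they act, are given by list. Of 29 tested IDs for SRF, its partners, CREB factors and MAP kinases, 16 (55.2%) were above the reference level and 3 (10.3%) below, against 36.8% and 33.2% of all tested genes. Both SRF IDs were on neither side, at 24.0, 1.87, 1.17 and 2.35 CPM (ENSDARG00000102867) and 17.3, 6.04, 5.87 and 8.03 CPM (ENSDARG00000053918), and both were highest in B1. The ERK gene MAPK3 stood at 203, 46.3, 43.5 and 45.1 CPM, with a mean of 84.4 ± 78.8 CPM that was 45.0 CPM without B1. crema, of the CREB family, stood at 77.9, 41.9, 40.6 and 42.7 CPM. Without B1 15 of the 29 lay above and 6 below, against 41.7% and 38.3% of all tested genes. Without B2, B3 or B4 13 of the 29 lay above, against 33%, 32.6% and 32.3% of all tested genes. With a filter of 1 CPM in all 4 libraries 12 of the 29 lay above and 4 below, against 35.9% and 31.7%. Without the filter, at a reference level of 3.14 CPM, 27 of 32 were above and 3 below, against 43.5% and 40.8% of all genes.

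Of 26 tested IDs of the JAK and STAT pathway, on which SOCS proteins act, 12 (46.2%) were above and 8 (30.8%) below, shares near those of all tested genes (36.8% and 33.2%). JAK1 stood at 224, 109.8, 103 and 110.1 CPM, STAT3 at 38.5, 35.7, 54.4 and 66.3 CPM and il6st, the gene of gp130, at 58.4, 62.3, 64.2 and 54.8 CPM, all above the reference level. The receptor gene cntfr, whose product binds CNTF and signals through gp130, stood at 206, 501, 321 and 260.4 CPM. The SOCS relative CISH, a target of STAT5, was above at 15.5, 43.1, 49.2 and 47.2 CPM, with B1 the lowest, as for SOCS1. il6r and osmr, genes of 2 other receptors that use gp130, were at 0.146 to 0.751 and 0.05 to 0.325 CPM and were not tested. Without B2 11 of the 26 lay above and 5 below, against 33% and 27.2% of all tested genes. Without B3 these were 9 and 6, against 32.6% and 26.7%, and without B4 11 and 4, against 32.3% and 25.7%. Without the filter 22 of 32 were above and 6 below, against 43.5% and 40.8% of all genes.

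Of 22 IDs of the ATF4 and ATF6 stress responses, 12 (54.5%) were above and 6 (27.3%) below, against 36.8% and 33.2% of all tested genes. Without the filter 18 were above and 1 below, against 43.5% and 40.8% of all genes. The CHOP gene DDIT3 stood at 607, 674, 571 and 508 CPM, CHAC1, a glutathione-degrading target of ATF4, at 181, 241, 279 and 273 CPM, and TRIB3, a pseudokinase gene, at 294, 527, 203 and 204 CPM. ppp1r15a, which encodes the stress-induced subunit that reverses eIF2 phosphorylation, stood at 1087, 631, 727 and 772 CPM. The ER chaperone gene HSPA5 stood at 3138, 1633, 1120.5 and 1134 CPM. ASNS and sesn2, other targets of ATF4, lay below the reference level at 5.51 ± 1.97 and 2.98 ± 1.58 CPM.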

How the data were processed

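The deposited table holds unnormalised read counts, as whole numbers, for Ensembl gene IDs in 4 libraries. A second deposited table holds YuGene values, a score between 0 and 1 set within each library. The submitters' processing notes name bcl2fastq, R 3.2.2 and the build GRCz10. For aligner, counter and annotation, the entry is "not given in the sources used here"; columns were read as unnumbered libraries of the only group, and 0 columns were left out. Symbols came from a table pairing Ensembl IDs with names (26269 of 32105 IDs), often in human style, so that copies can share a symbol.

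Counts were scaled with edgeR 4.0.16 in R 4.3.3 (TMM). Genes reaching 1 CPM in 2 or more libraries were tested with a single mean per gene, two-sided, against the median fitted level, with Benjamini-Hochberg adjustment at 0.05. As edgeR tests no model of an intercept alone, its F statistic was built from the deviance lost on fixing the level, divided by the moderated quasi-dispersion. Log2 CPM for differences between libraries and copies used a prior count of 2. Counts were simulated for the 17283 tested genes, of which 16843 passed the filter in the simulated data. Of genes set 4-fold over the reference 50 of 50 were called above, and of those set at 0.25 times it 50 of 50 below. At 2-fold over it 33 of 50 were called above, and at 0.5 times it 28 of 50 below. Of 200 set at the reference 4 were called. The simulation gave the genes 1 common biological coefficient of variation, 0.538, except those set at 2. No library was set apart as B1 is, so these rates do not cover that feature of the data. Among genes simulated at 2, 153 had a mean CPM of at least 10. A biological coefficient of variation of at least 1 was found for 26 of these 153, so that measure misses most such genes. Levels per kilobase were planned and not computed, since no exonic lengths were used here. limma 3.58.1 and DESeq2 1.42.0 served as alternatives.

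The members and all lists were chosen with earlier results of these data known. Named genes are the 4 of highest mean CPM in each of the 10 families, variable genes, untested members and strongly unequal copies; others named were chosen after their values were seen. The list entries fosab, nkx3.1, desma, pecam1, cx43, tubb3, mpeg1.1 and col3a1 had no match.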

Additional observations from a re-analysis of the deposited data

Results flagged for a closer look

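In 10 of the 43 named and tested genes 1 library lay apart from the other 3, by the gap to its nearest neighbour as a share of the whole range of CPM (above Dixon's 95% limit for 4 values). That limit flags about 1 in 20 groups of normally distributed values by chance, and its rate for CPM values was not checked. In these libraries 16.6% of all tested genes and 21.1% of the tested members passed it. The named genes were chosen mostly by mean CPM, which 1 high library raises. That choice favours genes with such a library, so the 10 of 43 cannot be set against these shares.

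B1 was the high library in 8 of the 10. The share was 0.956 for egr4, 0.92 for EGR3, 0.957 for atf7ip, 0.853 for atf5a, 0.955 for CEBPD, 0.97 for BTG2, 0.988 for IER5L and 0.967 for SOCS7. B2 was the high library for klf2a, at 0.931, and for DUSP5, at 0.843.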

How the results depend on the processing

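Over the alternatives, between 42 and 64 members lay above the reference level and between 9 and 17 below. Each count was within 1.5 times the 50 and 13 given. The shares of all tested genes moved as well. The 42 were of 76 by DESeq2, against 35.8% of all tested genes, and the 64 of 91 without the filter, against 43.5%. The 17 were by DESeq2, against 37%, and the 9 without B2, B3 or B4, against 27.2%, 26.7% and 25.7%. Which genes lay below changed without a filter on low counts. There the reference level fell from 12.6 to 3.14 CPM and 1 of the 13 was still below. DESeq2 gave no p for 7 tested members, 6 of them named. Of 424 levels of named genes recomputed, 410 kept direction and call. Those that turned direction were KLF12 (ENSDARG00000032197) at 1.38, ATF7 (ENSDARG00000011298) at 1.85 and SOCS6 (ENSDARG00000058565) at 0.45 log2 units without the filter, because the reference level fell, and SOCS7 at -0.30 without B1. Leaving out each library put SOCS7 between -0.30 and 1.71, and its adjusted p lay between 8.91e-05 (edgeR, no filter) and 0.349 (limma-voom). Variable members were 9 of 58 with a coefficient of variation of CPM of at least 1 in place of edgeR's estimate. That is 15.5%, against 6.22% of all such genes, and in each of the 9 B1 was at least 2-fold above every other library. By edgeR's estimate they were 0 to 1 when each library was left out, against 0.182% to 0.667% of all such genes. The cause was not tested. The strongly unequal copies were 5 to 6 over the alternatives. The count highest in B1, an alternative chosen after seeing the data, was 37 (48.7%) by library totals or DESeq2 size factors and 34 (44.7%) by YuGene. Of all tested genes 37.3%, 38.1% and 36.8% were highest in B1 by these 3 scalings. No paired analysis was possible because there is a single group. The 4 libraries limit the copy comparisons to p of at least 0.125. Levels per kilobase were not run, for lack of exonic lengths.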
